A study of Bos taurus with 2 samples.

Results

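The messenger RNA-binding regulators DAZL, BOLL, YBX2, CPEB1, PUM2 and NANOS2, all known from male germ cells, were followed in RNA sequencing of bovine seminiferous tubules, where sperm are made. They were taken by gene symbol, and all 6 were found among the 24616 listed genes, each on 1 row. The samples were tubule pieces of Bos taurus, 1 library from a calf with an age of 3 months and 1 library from a calf with an age of 9 months. No treatment or genetic change is named for either calf, and breed is not given in the sources used here. A tubule piece is a mixture of cells, and fewer cells of a type and less RNA per cell cannot be told apart in it.

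Developing sperm cells make many messenger RNAs long before the proteins are needed, because transcription stops as the sperm nucleus is packed. Proteins that bind these messenger RNAs keep them stored, have them read or have them destroyed. DAZL and BOLL belong to the DAZ family of RNA-binding proteins, of which DAZL works from early germ cells into meiosis and BOLL in meiosis and later. YBX2 is a Y-box protein that stores messenger RNA in spermatocytes and spermatids. CPEB1 controls the length of the poly(A) tail. PUM2 is a Pumilio repressor present in many cell types. NANOS2 is a repressor of undifferentiated spermatogonia that recruits the CCR4-NOT enzyme, which shortens poly(A) tails.

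Of the 6 genes, 4 were far more abundant in the 9-month library, and the other 2 were not. YBX2 differed most, BOLL next, then DAZL and CPEB1, while PUM2 lay within 2-fold and NANOS2 was close to the detection limit in both libraries. Levels are given as counts and as CPM, which are counts relative to the library size after TMM scaling (trimmed mean of M values). Folds are ratios of these scaled counts, 9-month to 3-month, with a 95% exact counting interval in brackets. A gene was called higher or lower when it was at least 2-fold apart with an interval that left out a ratio of 1. With 1 library per age no test is possible, so every difference compares these 2 libraries only and has no replicate check.

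Total counts were 37600534 at 3 months and 29782234 at 9 months. Of 18025 genes with at least 10 counts over both libraries, called measured here, 28.0% were higher in the 9-month library by the same rule and 22.8% were lower. The 4 members called higher were also at least 4-fold higher, as were 17.3% of measured genes. None of the 6 members was called lower. Their median log2 ratio was 2.91, against 0.02 over all measured genes. The balance over all genes moved with the scaling. Higher genes made up 55.1% of all called genes with TMM and 71.2% with plain library totals, which shifted every log2 ratio by 0.45, and upper-quartile scaling shifted it by -0.10.

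**Figure D1:**
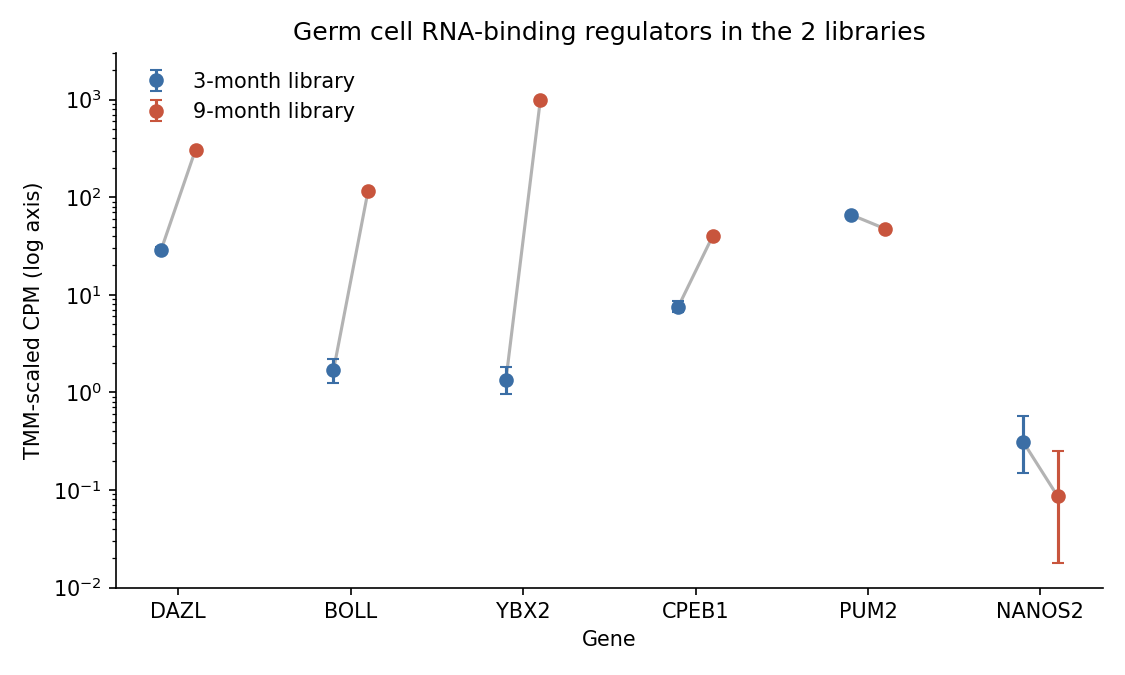
TMM-scaled CPM on a log axis of each of the 6 genes in the 3-month library (blue) and the 9-month library (red), with 95% exact Poisson counting intervals as bars and a grey line joining the 2 libraries. YBX2 goes from 1.34 to 999.3 CPM, while PUM2 goes from 66.2 to 47.4 CPM and the NANOS2 intervals overlap.

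YBX2 (ENSBTAG00000009126), the storage protein of spermatocytes and spermatids, had 43 counts at 3 months and 34812 at 9 months. These are 1.34 and 999.3 CPM, a 747-fold difference [554 to 1032]. Per length, in the RPKM that the authors deposited, YBX2 stood at 0.731 and 746.9. That placed it above 21.9% of measured genes at 3 months and above 99.7% at 9 months. In the 3-month library it was the fifth of the 6 genes by RPKM, and in the 9-month library the first.

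BOLL (ENSBTAG00000031614), the meiotic DAZ family member, had 54 and 3986 counts. Its level went from 1.68 to 114.4 CPM, a 68.1-fold difference [52.1 to 90.8]. BOLL and YBX2 were at almost the same low RPKM in the 3-month library, 0.790 and 0.731, and their counting intervals of 0.594 to 1.03 and 0.529 to 0.984 overlapped. In the 9-month library BOLL reached an RPKM of 73.7, and the RPKM of YBX2 was 10.1 times as high. The ratio of YBX2 to BOLL thus differed 10.97-fold [7.20 to 16.8] between the libraries. This within-library ratio does not depend on the scaling.

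DAZL (ENSBTAG00000000502), the DAZ family member that is also active before meiosis, was already well detected in the younger calf, with 921 counts or 28.7 CPM. In the 9-month library it had 10665 counts or 306.1 CPM, a 10.7-fold difference [9.99 to 11.4]. By RPKM it was the second of the 6 genes in both libraries, at 8.34 and 121.9. Its place among measured genes went from above 56.3% of them to above 95.5%.

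CPEB1 (ENSBTAG00000000623), the regulator of poly(A) tails, had 243 counts or 7.56 CPM at 3 months and 1401 counts or 40.2 CPM at 9 months. The difference was 5.32-fold [4.64 to 6.12], the smallest among the 4 members called higher. Its RPKM was 3.62 and 26.4. In the RefSeq annotation of assembly ARS-UCD2.0 the CPEB1 gene overlaps 2 other genes, a long noncoding RNA and a small nucleolar RNA, and the other 5 members overlap none. Whether the counting used strand is not given, so reads of the noncoding gene could be among those of CPEB1.

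PUM2 (ENSBTAG00000011155), the Pumilio repressor, had 2129 counts or 66.2 CPM at 3 months and 1651 counts or 47.4 CPM at 9 months. It was 1.40-fold lower [1.31 to 1.49] and so lay within 2-fold. In the deposited RPKM, which are relative to plain library totals, its levels were 17.6 and 17.3. The size of the PUM2 difference thus rested on the scaling. PUM2 was the first of the 6 genes by RPKM in the younger calf and the fifth in the older.

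NANOS2 (ENSBTAG00000047505), the repressor of undifferentiated spermatogonia, had 10 counts at 3 months and 3 at 9 months. These are 0.311 and 0.0861 CPM, a ratio of 0.277 [0.0490 to 1.08]. The interval includes 1, so a difference was not detectable at this depth. A count of 3 equals the limit that a count of 0 allows, so NANOS2 was at the detection limit in the older calf. It was the last of the 6 genes by RPKM in both libraries, at 0.638 and 0.242, although in the 3-month library its counting interval of 0.306 to 1.17 overlapped those of BOLL and YBX2.

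**Figure D2:**
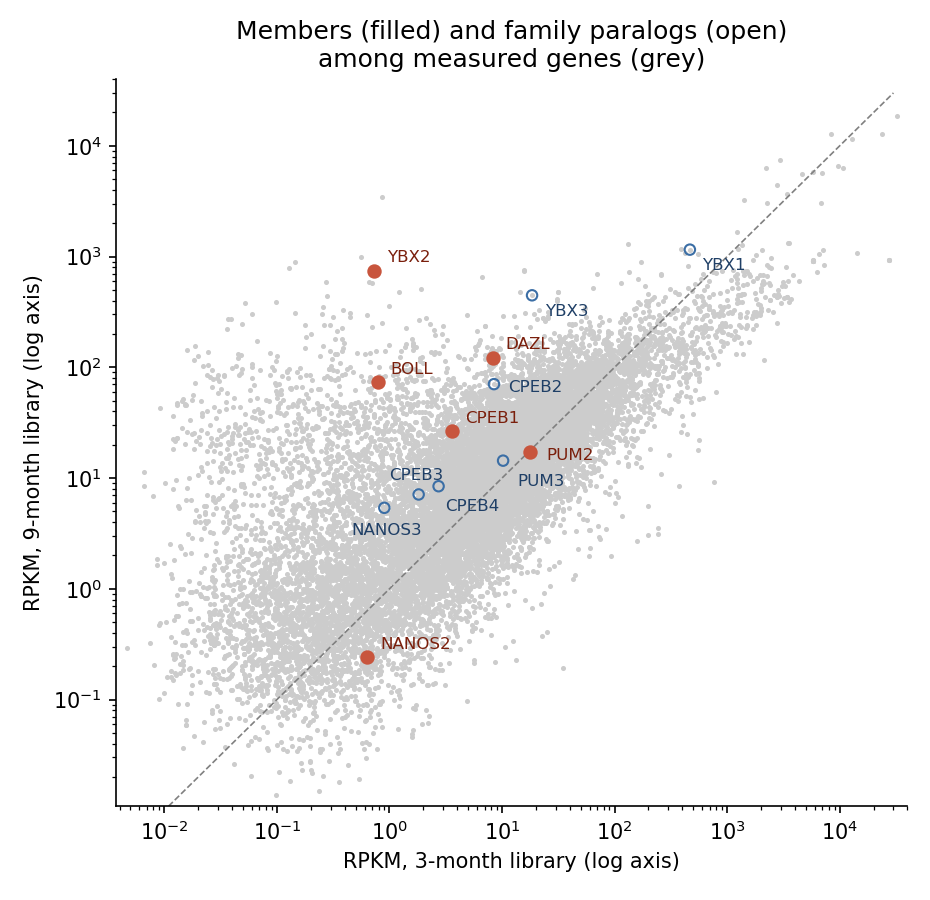
Deposited RPKM of measured genes in the 3-month library (x, log axis) and the 9-month library (y, log axis), with the 6 members as filled red points, their family paralogs as open blue circles and equal RPKM as the dashed line. Genes listed at 0 in either library are left out, YBX2 and BOLL lie at the far upper left of the members, and PUM2 lies near the line.

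Paralogs of the same families show which of the differences were shared within a family. Of 8 paralogs considered, 7 were measured, 5 were higher, 0 were lower and 2 were neither, with a median log2 ratio of 1.52. By the same rule 28.0% of all measured genes were higher and 22.8% lower. NANOS1 was not found under its symbol and is not analysed here.

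Among the Y-box genes the make-up differed most. In the 3-month library YBX1, the paralog of most body cells, supplied 96.0% of the summed RPKM of the 3 genes, YBX3 3.80% and YBX2 0.150%. In the 9-month library the shares were 49.2% for YBX1, 19.03% for YBX3 and 31.8% for YBX2. YBX3, listed in the tables under its older symbol CSDA, stood at 37.6 and 664.1 CPM, which is 17.7-fold higher [16.7 to 18.7]. YBX1 itself went from 831.9 to 1505 CPM, a 1.81-fold difference [1.78 to 1.84] that stayed within 2-fold with TMM and passed it with plain library totals. The ratio of YBX2 to YBX1 was 413-fold higher in the older calf [306 to 571], and that of YBX2 to YBX3 42.3-fold higher [31.2 to 58.8]. YBX1 has processed copies in mammalian genomes, and the treatment of reads with several alignments is not given, so its level is uncertain.

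In the DAZ family BOLL held a larger share in the older calf. DAZL supplied 91.3% of the summed RPKM of both genes at 3 months and 62.3% at 9 months. Of their summed counts BOLL took 5.54% (95% exact binomial interval 4.19 to 7.17) and then 27.2% (26.5 to 27.9). The ratio of DAZL to BOLL was 6.37-fold lower in the older calf [4.83 to 8.57].

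The 4 CPEB genes were all higher in the 9-month library. CPEB2 was 6.07-fold higher [5.57 to 6.64], CPEB3 2.86-fold [2.55 to 3.22] and CPEB4 2.26-fold [2.06 to 2.48]. CPEB2 had the highest RPKM of the family in both libraries, 8.48 and 70.5. CPEB1 supplied 21.8% and then 23.5% of the family's summed RPKM. The ratio of CPEB1 to CPEB2 differed by a factor of 0.876 [0.743 to 1.03], an interval that includes 1. Against CPEB4 the ratio was 2.36-fold higher [1.996 to 2.78], and against CPEB3 1.86-fold higher [1.55 to 2.23]. CPEB3 overlaps the protein-coding gene BTAF1 in ARS-UCD2.0 and CPEB4 overlaps a pseudogene, so their counts are less certain.

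PUM3, a distant relative of PUM2, listed as KIAA0020 and known from the nucleolus, had 25.9 and 26.6 CPM, a ratio of 1.03 [0.934 to 1.13].

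NANOS3, the paralog known from primordial germ cells and spermatogonia, had 27 and 128 counts. NANOS3 overlaps 2 microRNA genes in ARS-UCD2.0. It was 4.37-fold higher [2.87 to 6.89] in the 9-month library, at 0.840 and 3.67 CPM. NANOS2 took 10 of the 37 counts of both genes in the 3-month library, or 27.0% (13.8 to 44.1), and 3 of 131 in the 9-month library, or 2.29% (0.475 to 6.55). These intervals do not overlap. The ratio of NANOS2 to NANOS3 was 15.8-fold lower in the older calf [3.66 to 93.0].

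**Figure D3:**
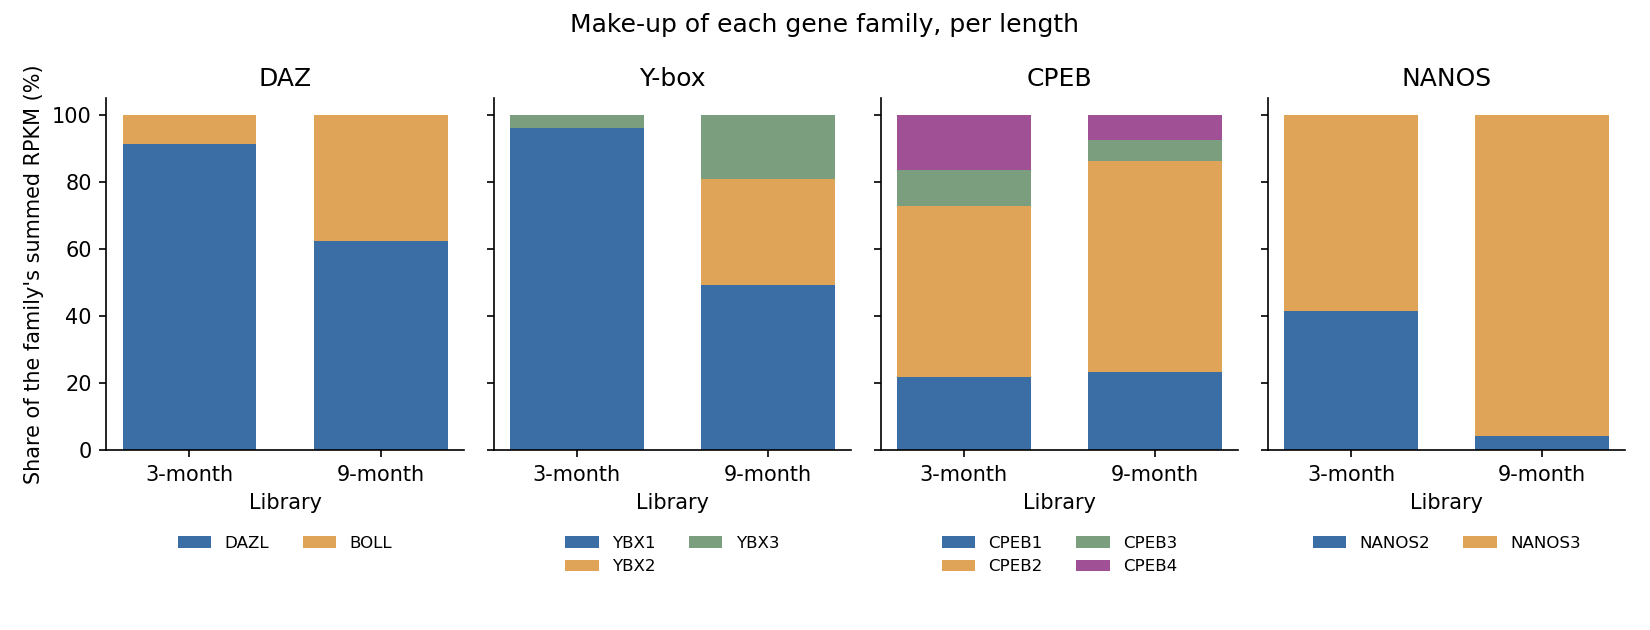
Share of the summed deposited RPKM of the DAZ, Y-box, CPEB and NANOS families (y, percent) taken by each of its genes (colours) in the 3-month and the 9-month library. YBX2 goes from 0.150% to 31.8% of the Y-box genes and BOLL from 8.66% to 37.7% of the DAZ genes, while CPEB1 stays at 21.8% and 23.5%.

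The members were next set against DDX4, an RNA helicase made throughout the germ line, since such a ratio does not depend on scaling. DDX4 is also listed below among germ cell RNA-binding proteins and among messenger RNAs bound in other species, so it is no independent reference. DDX4 had 755 counts or 23.5 CPM at 3 months and 14073 counts or 404.0 CPM at 9 months, a 17.2-fold difference [16.0 to 18.5]. Relative to DDX4, YBX2 was 43.4-fold higher in the older calf [31.9 to 60.6] and BOLL 3.96-fold higher [2.99 to 5.33]. DAZL was 1.61-fold lower relative to DDX4 [1.46 to 1.78], with an RPKM equal to 1.02 times that of DDX4 at 3 months and 0.631 times at 9 months. CPEB1 was 3.23-fold lower [2.76 to 3.78], PUM2 24.0-fold lower [21.8 to 26.5] and NANOS2 62.1-fold lower [15.9 to 352], the last resting on 3 counts in the older calf. The 4 members called higher by CPM therefore split, with only YBX2 and BOLL above the difference of DDX4. Whether the level of DDX4 per germ cell was equal in both libraries was not tested, so these ratios are not levels per germ cell. PUM2 is also present in other cell types, so its ratio does not compare germ cells alone.

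Markers of germ cell stages differed between the libraries as well. All 12 markers of meiotic prophase were higher, with log2 ratios from 1.17 to 7.79, a median of 5.08 and a summed level of 61.6 CPM at 3 months and 721.1 CPM at 9 months. None of the meiotic markers was at 0. All 12 spermatid markers were higher, with log2 ratios from 6.55 to 12.54, a median of 10.92 and a summed level of 1.84 and 2906 CPM, and SPACA3 and ODF1 were at 0 counts in the 3-month library. Ratios of those genes are bounds against a floor of 3 counts. The other spermatid markers had at most 22 counts at 3 months, so the sizes of their ratios are uncertain. The highest, of ACTL7B, rested on 1 count at 3 months, with an interval in fold of 1072 to 236070. Of 12 markers of undifferentiated spermatogonia 9 were measured, of which 3 were higher, 1 was lower and 5 were neither, with a median of 0.74 and a summed level of 99.2 and 140.8 CPM. Over all measured genes 28.0% were higher and 22.8% lower with TMM. With plain library totals 7 of the 9 spermatogonial markers were higher, 0 lower and 2 neither, with a median of 1.19. All 18025 measured genes then had 6529 higher and 2643 lower. ID4, LIN28A and PLPPR3 were not found under their symbols.

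The members lay at different places along these markers. With the counting intervals of both genes compared, YBX2, with a log2 ratio of 9.55, lay above all 12 meiotic markers. Of 12 spermatid markers it lay above 1 and below 5, and its interval overlapped those of the other 6. BOLL at 6.09 lay above 7 of 12 meiotic markers, below 1 and overlapped the intervals of 4, and it lay below 11 of 12 spermatid markers. DAZL at 3.42 lay above 3 of the 12 meiotic markers and below 9. CPEB1 at 2.41 lay above 1 and below 10. PUM2 at -0.48 and NANOS2 at -1.85 lay below every meiotic marker. NANOS2 also lay below 8 of 9 measured spermatogonial markers. These markers include its paralog NANOS3, and the place of NANOS2 rests on 10 and 3 counts. How much of each member's difference goes with the number of cells at each stage was not tested.

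Among somatic markers, those of Sertoli cells and of Leydig cells, which lie between the tubules, were mostly lower. Over all measured genes 22.8% were lower and 28.0% higher. Of 12 Sertoli cell markers 11 were measured, with 7 lower, 2 higher and 2 neither, and their sum went from 9322 to 2218 CPM, with GATA1 at 0 counts in the 3-month library. Of 8 Leydig cell markers 7 were found, with 6 lower and 1 higher, and their sum went from 17663 to 2775 CPM. Of 6 peritubular markers 2 were higher, 2 lower and 2 neither, with sums of 451.2 and 699.2 CPM. Of 10 endothelial and leukocyte markers 5 were lower, 2 higher and 3 neither, with sums of 452.4 and 270.3 CPM. With plain library totals the Sertoli list had 6 lower, the Leydig list 6, the endothelial and leukocyte list 3 and the peritubular list 0. With that scaling 3 peritubular markers were higher. All 18025 measured genes then had 2643 lower and 6529 higher. The part of these cells in the results on PUM2, which is made in many cell types, was not tested.

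Other RNA-binding proteins of germ cells formed the list nearest to the members. Of 22 genes 19 were measured, of which 15 were higher, 1 was lower and 3 were neither, with a median log2 ratio of 3.16. The shares over all measured genes were 28.0% higher and 22.8% lower. MEIOC, which works with YTHDC2 to let germ cells proceed through meiosis and is listed as C17orf104, had 20 and 4971 counts and was 229-fold higher [148 to 376]. SAMD4A, a homolog of the fly translational repressor Smaug, was 80.7-fold higher [66.4 to 98.9], and ADAD1, a testis RNA-binding protein, 64.6-fold higher [54.0 to 77.9]. BICC1, which was the 1 lower gene, had 16.8 and 6.86 CPM and was 2.45-fold lower [2.10 to 2.86], or 1.79-fold lower and within 2-fold with plain library totals. DND1, the known partner of NANOS2, had 162 and 206 counts and a ratio of 1.17 [0.950 to 1.45], an interval that includes 1.

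The CCR4-NOT complex is the enzyme through which NANOS2 acts. Of its 14 listed genes and cofactors, all measured, 4 were higher, 0 lower and 10 neither, with a median log2 ratio of 0.21. Over all measured genes 28.0% were higher and 22.8% lower, so the share of higher genes was near that of all genes. With plain library totals 6 of the 14 were higher, with a median of 0.66, against 6529 of all 18025 measured genes. CNOT1, the scaffold that NANOS2 binds, stood at 279.0 and 1211 CPM, which is 4.34-fold higher [4.24 to 4.44]. CNOT10 was 2.83-fold higher [2.63 to 3.05]. BTG4, a cofactor known from egg cells, had 2 and 281 counts, a ratio of 130 [35.6 to 1076]. TOB1, another cofactor, had 105.5 and 57.4 CPM and stayed within 2-fold at 1.84-fold lower [1.74 to 1.94].

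Partners of CPEB1 in cytoplasmic polyadenylation gave a similar picture. Of 16 genes 13 were measured, of which 4 were higher, 0 were lower and 9 were neither, with a median log2 ratio of 0.73. With TMM the share of higher genes was again near the 28.0% over all measured genes, of which 22.8% were lower. With plain library totals 7 of the 13 were higher, a larger share than the 6529 of all 18025 measured genes. AURKA, a kinase that can activate CPEB1, was 6.97-fold higher [6.13 to 7.94]. SYMPK, the scaffold of the polyadenylation complex, was 4.58-fold higher [4.36 to 4.815], and PATL1, a factor of messenger RNA decay bodies, 2.24-fold [2.13 to 2.34]. PARN, a deadenylase, had 57.4 and 31.7 CPM and stayed within 2-fold at 1.81-fold lower [1.68 to 1.95].

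Messenger RNAs that these proteins bind in other species were listed as well. Of 16 such genes 15 were measured, of which 13 were higher, 0 lower and 2 neither, with a median log2 ratio of 5.81, and 5.71 or more under the other scalings. Over all measured genes 28.0% were higher and 22.8% lower. The list shares genes with the meiotic and spermatid markers and also holds DDX4, so it is no independent set. TNP1 and TNP2, spermatid proteins whose messenger RNAs are stored before use, had 2 and 3 counts at 3 months, against 9897 and 14549 at 9 months. PRM1, the protamine, had 13 and 41274 counts and was 2930-fold higher [1713 to 5503]. SYCP3, a synaptonemal complex gene bound by DAZL and CPEB1 in the mouse, was 7.60-fold higher [6.66 to 8.70]. STRA8, the retinoic acid target held down by NANOS2 in the mouse, had 313 and 592 counts and was 1.75-fold higher [1.52 to 2.01], and 2.39-fold higher with plain library totals, so its place within 2-fold depended on the scaling. TAF7L, a germ cell transcription factor subunit, had 85.0 and 56.1 CPM and was 1.52-fold lower [1.43 to 1.61], also within 2-fold. SYCP3 and STRA8 were named after their values were seen.

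**Figure D4:**
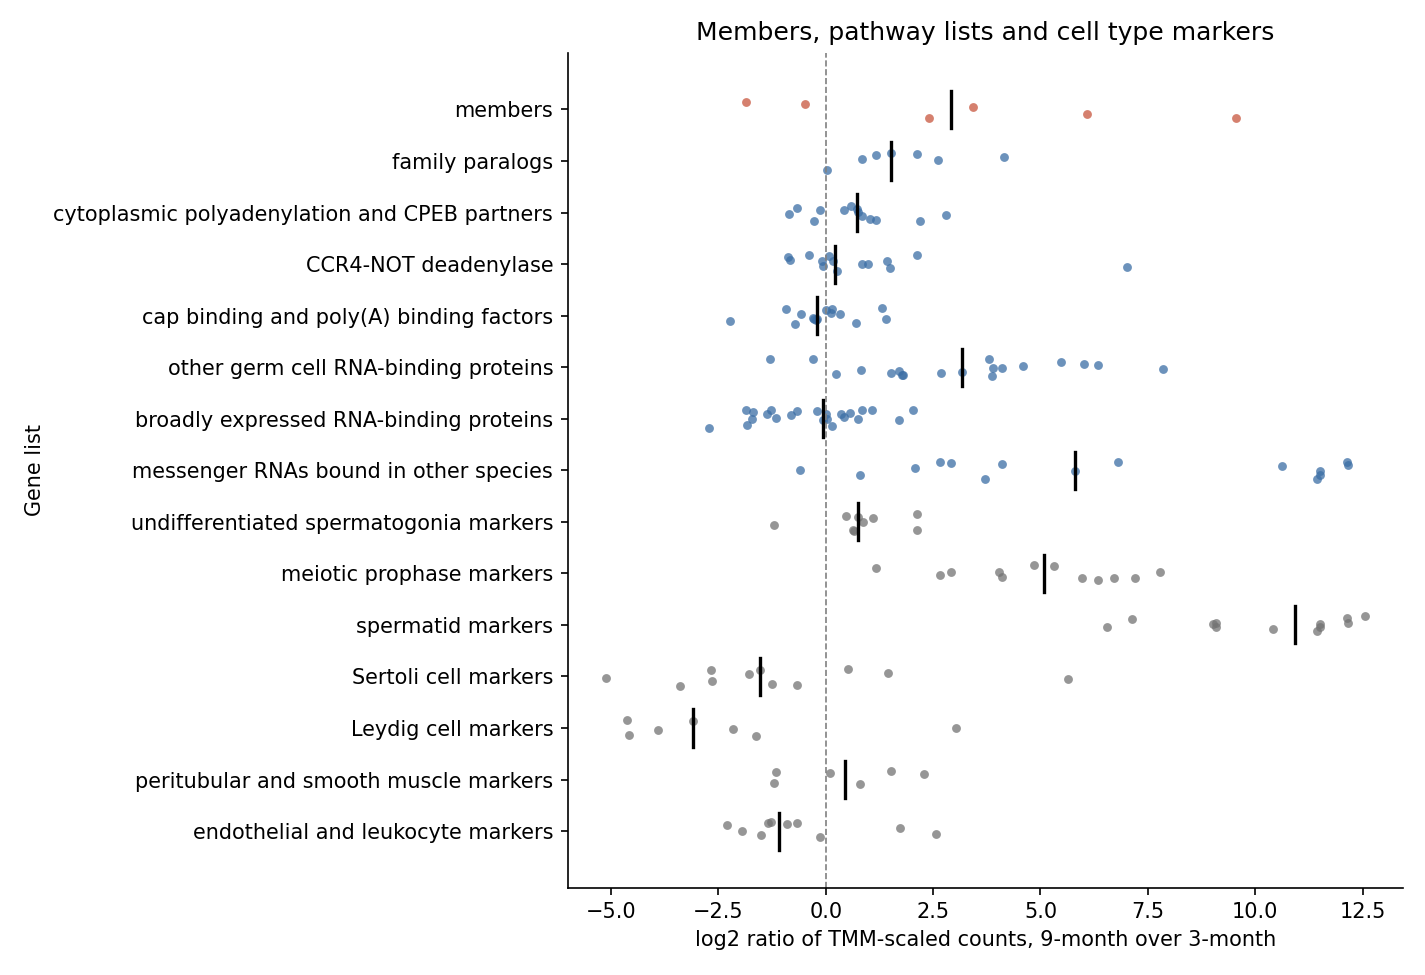
Log2 ratio of TMM-scaled counts, 9-month over 3-month (x), of each measured gene of the 6 members (red), the 7 pathway lists (blue) and the 7 lists of cell type markers (grey), with medians as black bars. The members spread from -1.85 to 9.55, while the spermatid markers spread from 6.55 to 12.54.

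For each member the 2 genes with the nearest pair of log2 per-length levels were looked up among 15351 measured symbols, over the 2 libraries only. For DAZL these were HMGA1 and C10H15ORF23, at distances of 0.065 and 0.073. For BOLL they were MGC134093 and GGNBP1 at 0.051 and 0.057, and for CPEB1 they were WDR54 and CKAP2L at 0.026 and 0.088. For PUM2 they were CHST15 and TBC1D15 at 0.019 and 0.021, and for NANOS2 LGI2 and CLEC1A at 0.049 and 0.052. The nearest genes to YBX2, SPINLW1 and DNAAF1, lay further off at 0.370 and 0.379.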

How the data were processed

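RNA was sequenced from tubule pieces cut from removed testes and frozen, per the labels' protocols, and each age has 1 library. Trimmomatic 0.33, STAR 2.4.0 and genome build UMD3.1 are named in the submitters' processing notes. Not given in the sources used here are the program that counted reads, its annotation, its strand setting and the use of molecular identifiers. The deposited tables have no header, so units were read from their values. One deposited column holds raw counts, another the gene length, and the last deposited column RPKM, which equals counts per kilobase, relative to the table's own total, within 0.000496%.

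Counts were scaled by TMM on genes of at least 10 counts (edgeR 4.0.16, R 4.3.3), with factors of 0.855 (3-month) and 1.17 (9-month). Fold intervals are conditional binomial (Clopper-Pearson), level intervals Poisson, and intervals of ratios between genes conditional odds ratios, all at 95%. They cover counting error only, and PCR reads need not be independent molecules. The floor for 0 counts is 3 counts per library. The calculation was also run on simulated Poisson counts with known folds, drawn with the same scaled library sizes. Such a run checks the arithmetic only, since it holds no spread between animals and no error of the scaling. Python 3.11.15, scipy 1.17.1 and matplotlib 3.10.9 were used. No test across genes is possible with 1 library per age.

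The members and the 14 lists were chosen with earlier results of these data known. Symbols with several rows were taken at the row with most counts, and list genes were also searched under older symbols. Named genes were the members, their paralogs, DDX4, DND1, and from each other list up to 4 genes of at least 5 CPM with the largest log2 ratios, up to 3 in each direction, as well as the 2 nearest genes of each member (0.1 added before the log). Not all of them are printed. A paralog among the planned genes is not reported here. Coordinates are not given because the annotation table is of another build, and sequences of the genes are not analysed here. Alternatives were 4 other scalings, a prior count of 2, a 4-fold limit and count minimums of 1 and 50.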

Additional observations from a re-analysis of the deposited data

How the results depend on the processing

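The count of 4 members higher and 0 lower was the same under all 4 other scalings, with a 4-fold limit, and with count minimums of 1 and 50, the last of which removes NANOS2. No member changed sign under any scaling or with a prior count of 2. With plain library totals the log2 ratios were 3.87 for DAZL, 6.54 for BOLL, 2.86 for CPEB1 and -0.031 for PUM2, and with upper-quartile scaling 3.32 for DAZL and -0.59 for PUM2, all outside the counting intervals of the TMM values. Other values stayed within those intervals. Depth limits NANOS2, for which 10 and 3 counts give no direction, and to a lesser degree the 3-month values of YBX2 and BOLL. No paired analysis was possible because each age has 1 library.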

Other observations

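Cap-binding and poly(A)-binding factors, the general machinery on which the germ cell regulators act, differed little between the libraries. Of 17 genes 15 were measured, of which 2 were higher, 1 was lower and 12 were neither. Among all measured genes 28.0% were higher and 22.8% lower. The median log2 ratio of the list was -0.20 and turned to 0.26 with plain library totals. EIF4G3, a scaffold of the cap-binding complex, was 2.46-fold higher [2.38 to 2.55], and PAIP2B, an inhibitor of poly(A)-binding proteins, 2.65-fold higher [2.03 to 3.48]. EIF4EBP1, a repressor of cap-dependent translation, went from 24.5 to 5.25 CPM and was 4.67-fold lower [3.97 to 5.51]. PABPC4 had 640.6 and 337.5 CPM and was 1.90-fold lower [1.86 to 1.94], within 2-fold with TMM but 2.04-fold lower with upper-quartile scaling.

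Broadly expressed RNA-binding proteins had more lower than higher genes with TMM. Of 23 measured genes 3 were higher, 8 lower and 12 neither, with a median log2 ratio of -0.06. Among all measured genes 28.0% were higher and 22.8% lower. With plain library totals 6 of the list were higher and 5 lower, with a median of 0.39. All 18025 measured genes then had 6529 higher and 2643 lower. ZFP36L1, which promotes messenger RNA decay, was 6.58-fold lower [6.28 to 6.89]. HNRNPA1 and RBMX, both nuclear RNA-binding proteins, were 3.60-fold [3.53 to 3.67] and 3.57-fold [3.39 to 3.76] lower, and both have processed copies that make their counts uncertain. IGF2BP1 was 4.07-fold higher [3.34 to 4.99]. Of the fragile X family, FXR1 was 3.27-fold higher [3.16 to 3.39], FXR2 1.34-fold higher [1.27 to 1.41], within 2-fold, and FMR1 3.30-fold lower [3.099 to 3.51], all 3 named after their values were seen.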
